A study of Homo sapiens with 7 samples.

Results

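The subject is the first step of a cardiac differentiation run without TET enzymes: CpG methylation at the cardiac mesoderm stage set against the stem cell stage of the same knockout line. It rests on 2 of the 7 libraries of the series, TKO CME and TKO SC. HUES8, the line used, is a long-established culture of human embryonic stem cells. TKO cells lacked TET1, TET2 and TET3 together and WT cells were unmodified; the way the genes were disrupted, and whether the line was a clone, are not stated in the labels. Neither the knockout nor the stages can be checked here, since the files hold no sequence or expression. TKO CME and WT CME were taken at day 3 of differentiation and TKO SC and WT SC at day 0. TKO CP and WT CP (cardiac progenitors, day 8) and WT CM (cardiomyocytes, day 14) are given for context. Differentiation was started with the Wnt activator CHIR99021, which had been washed out by the CME stage, and the Wnt antagonist IWP2 came in at day 3. Both TKO libraries had 10 or more reads at 2142755 of the 2314743 CpGs seen in either of them, and these CpGs filled 106332 bins of 1 kb with 5 or more CpGs.

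DNA methylation at CpGs is copied at replication by DNMT1 and placed anew by the DNMT3 enzymes. TET enzymes oxidise 5-methylcytosine, which opens a route back to unmethylated cytosine. Without them a level can still fall where copying fails over cell divisions, and it can rise where the DNMT3 enzymes act. Wnt signalling through beta-catenin drives pluripotent cells into primitive streak and mesoderm, with WNT3, MIXL1, EOMES, TBXT and the Wnt target SP5 among the genes of that step.

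The change from stem cell to mesoderm is easiest to see on the letters of single promoters. Of the promoters measured, those of VAMP5 and TTLL8 were among the largest rises and those of KHDC1 and MEIS3 among the largest falls. They are printed from RefSeq (GRCh38.p14), 5′ to 3′ along the gene's strand, over 300 bases from 250 before to 50 after the start; capitals mark the CpGs measured in both TKO libraries. VAMP5 lies at chr2:85584181-85584480 on the plus strand, TTLL8 at chr22:50058249-50058548 on the minus strand, KHDC1 at chr6:73310110-73310409 on the minus strand and MEIS3 at chr19:47422184-47422483 on the minus strand.
VAMP5: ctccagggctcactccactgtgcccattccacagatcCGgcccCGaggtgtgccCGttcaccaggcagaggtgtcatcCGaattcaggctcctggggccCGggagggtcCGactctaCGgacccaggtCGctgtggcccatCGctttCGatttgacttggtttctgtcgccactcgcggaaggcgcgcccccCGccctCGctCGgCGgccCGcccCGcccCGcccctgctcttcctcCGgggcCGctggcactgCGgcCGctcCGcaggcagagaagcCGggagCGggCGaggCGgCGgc
TTLL8: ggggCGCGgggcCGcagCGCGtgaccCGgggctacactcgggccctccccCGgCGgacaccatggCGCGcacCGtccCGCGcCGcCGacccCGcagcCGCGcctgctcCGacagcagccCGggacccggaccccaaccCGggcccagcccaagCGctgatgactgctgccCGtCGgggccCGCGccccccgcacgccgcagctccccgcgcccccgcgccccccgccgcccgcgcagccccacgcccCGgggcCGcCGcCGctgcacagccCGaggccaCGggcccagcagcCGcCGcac
KHDC1: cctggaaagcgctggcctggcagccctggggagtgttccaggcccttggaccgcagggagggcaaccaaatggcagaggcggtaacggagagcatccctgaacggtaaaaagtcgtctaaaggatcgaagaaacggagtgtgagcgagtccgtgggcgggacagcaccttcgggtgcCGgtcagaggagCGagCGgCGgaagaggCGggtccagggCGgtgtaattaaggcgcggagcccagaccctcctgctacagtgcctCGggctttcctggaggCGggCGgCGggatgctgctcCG
MEIS3: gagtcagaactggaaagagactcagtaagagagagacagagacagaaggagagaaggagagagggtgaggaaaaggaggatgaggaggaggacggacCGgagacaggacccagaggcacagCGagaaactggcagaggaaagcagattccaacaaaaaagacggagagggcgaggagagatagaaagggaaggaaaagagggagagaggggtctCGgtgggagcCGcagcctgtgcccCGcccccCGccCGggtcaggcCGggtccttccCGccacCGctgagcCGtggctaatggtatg

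In the VAMP5 sequence, 27 CpGs summed to 54.7% methylated reads in TKO CME and 30.4% in TKO SC. All 27 stood higher in TKO CME, by 4.23 to 32.4 points. In the TTLL8 sequence, 34 CpGs stood at 35.1% in TKO CME and 13.7% in TKO SC, with 32 CpGs higher and 1 lower. In the KHDC1 sequence, 11 CpGs stood at 17.2% in TKO CME and 36.7% in TKO SC, and all 11 were lower, with differences from -25.1 to -9.77 points. In the MEIS3 sequence, 11 CpGs stood at 25.7% in TKO CME and 43.7% in TKO SC, with 8 lower and 2 higher. Neighbouring CpGs thus moved together in VAMP5, TTLL8 and KHDC1, and less evenly in MEIS3. The files carry hg19 positions and no hg19 gene annotation was at hand, so exon, intron and UTR are not given. Promoters were found in the files by the spacing of their CpGs, a step added after the files had been seen.

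Over all shared CpGs the level hardly moved. The mean level was 48.2% in TKO CME and 47.8% in TKO SC, a difference of 0.375 points. CpGs under 20% made up 43.1% in TKO CME and 43.4% in TKO SC, those from 20 to 80% made up 14.3% in TKO CME and 14.0% in TKO SC, and those over 80% made up 42.5% in both. The share of C at 224 mitochondrial CpGs, a measure of cytosine left unconverted by bisulfite, was 0.387% in TKO CME and 0.140% in TKO SC, so a gap of 0.247 points stood beside the rise. After correction for unconverted cytosine the mean difference was 0.313 points. Weighted by reads, the level was lower in TKO CME, at 34.6%, against 38.2% in TKO SC. Depth moved with this: bins under 5% in WT SC had 1.17 times the coverage in TKO CME relative to TKO SC, and those at 95% or more had 0.957 times.

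Depth was high in both libraries. Reads summed over all listed cytosines came to 213058905 in TKO CME and 197312658 in TKO SC, and ran from 120742115 to 213058905 over the 7 libraries. Median coverage per shared CpG was 78 reads in TKO CME and 72 in TKO SC. Each genotype and stage has 1 library. Differences therefore have no replicate check, and every p compares libraries, not conditions. Intervals are 95% Wilson intervals and cover counting error only. Reads that span several CpGs enter at every site, and copies made by PCR cannot be told from separate molecules, so p-values and intervals are too small.

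Bins moved little and in both directions. The median bin differed by 0.0965 points, and 48.6% of bins lay within 2 points, 79.4% within 5 and 95.9% within 10. The SD over bins was 4.47 points. On the 96628 bins also measured in both WT libraries, the SD was 4.25 points for TKO and 3.55 points for WT, and the median was 0.0977 points for TKO and 0.312 points for WT. Correction for unconverted cytosine turned the TKO median to -0.0161 points, so its sign is not fixed by these data. The lowest 0.1% of bins lay below -20.1 points and the highest 0.1% above 21.1 points.

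**Figure D1:**
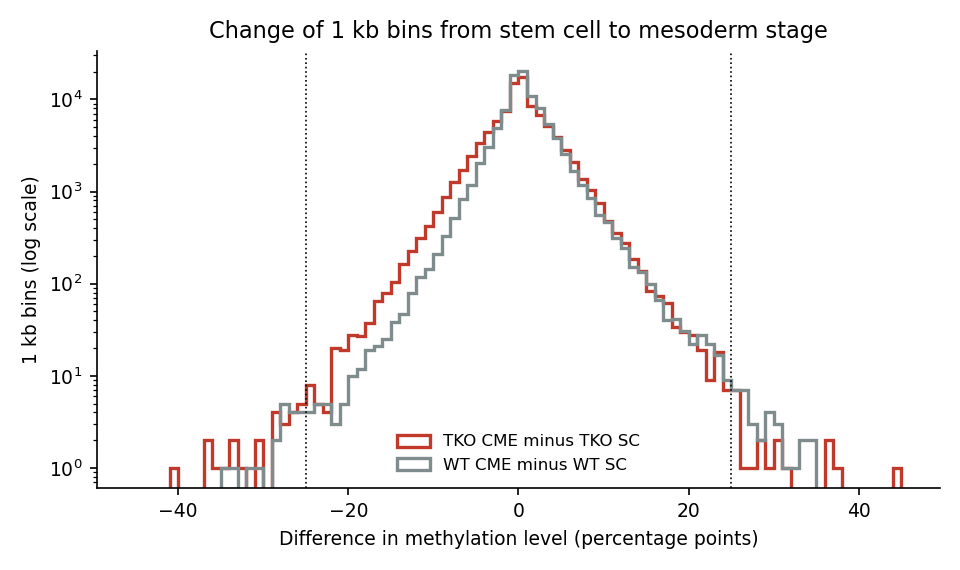
Histogram of the difference between the mesoderm and stem cell stage over the 96628 bins of 1 kb measured in all 4 libraries, in percentage points, with the number of bins on a log axis; dotted lines mark 25 points either way. TKO (red) has an SD of 4.25 points and WT (grey) one of 3.55 points, and the falling side reaches -40.7 points in TKO and -34.3 points in WT.

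The level a bin held in WT stem cells, which neither TKO library set, showed where the movement lay. Bins under 5% in WT SC had medians of 0.822% in TKO CME and 0.765% in TKO SC. Bins at 5 to 20% in WT SC had medians of 23.6% in TKO CME and 23.04% in TKO SC, and their median bin difference of 0.936 points was the largest of the 5 classes. Bins at 20 to 80% had medians of 77.2% in TKO CME and 78.2% in TKO SC, with a median difference of 0.129 points. Bins at 80 to 95% had a median difference of 0.119 points and those at 95% or more one of 0.479 points. Differences of 15 points or more were most frequent in the 5 to 20% class, with 1.57% of bins higher and 0.765% lower in TKO CME, and in the 20 to 80% class, with 1.004% higher and 1.04% lower. They were rare under 5%, at 0.126% higher and 0.0504% lower.

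At 25 points or more and an adjusted p under 0.01 (Fisher's exact test on summed reads, Benjamini-Hochberg over all bins), 35 bins were higher in TKO CME, which is 0.0329% of those tested, and 37 were lower, which is 0.0348%. Together these 72 bins were 0.0677% of those tested. The higher bins had a median of 78.2% in TKO CME and 48.1% in TKO SC. The lower bins had a median of 49.4% in TKO CME and 79.6% in TKO SC. By p alone, whatever the size, 9679 bins (9.1%) were higher and 6595 (6.2%) lower. At 15 points, 473 (0.445%) were higher and 400 (0.376%) lower. At 40 points 1 bin remained in each direction. At the threshold, the smallest called rise was 25.01 points and the largest rise short of it 24.9 points, and the smallest called fall was -25.4 points and the largest short of it -24.6 points. When the reads of each bin were divided by its number of CpGs, as if a molecule spanned them all, 0 bins were called higher and 2 lower.

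**Figure D2:**
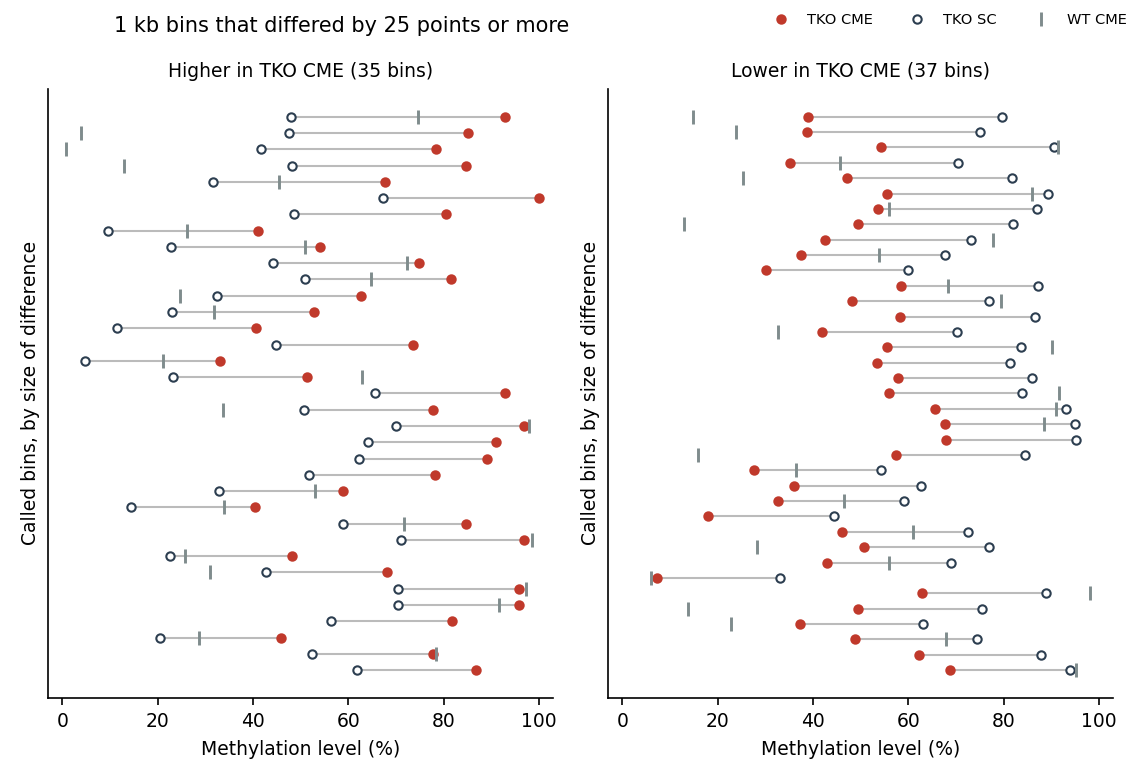
Methylation level (%) of the 35 bins called higher (left) and the 37 called lower (right), 1 row per bin, largest difference at the top: filled red circles are TKO CME, open circles TKO SC and grey ticks WT CME where measured. The higher bins had a median of 78.2% in TKO CME and 48.1% in TKO SC, the lower bins one of 49.4% in TKO CME and 79.6% in TKO SC.

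The called bins were small. They held a median of 6 CpGs, and 33 of 72 held exactly 5, against 18.2% of all bins. Median reads per called bin were 220.5 in TKO CME and 236 in TKO SC, against 702 and 725 over all bins, and the fewest were 51. Of bins with 40 or more CpGs, 0 of 10856 were called. Chromosome X held 6 of them, or 0.261% of its 2296 bins. By distance from the nearest placed start, 1 of 10543 bins under 0.5 kb was called, 6 of 9518 from 0.5 to 2 kb, 9 of 12091 from 2 to 10 kb and 52 of 69942 at 10 kb or more. Only 13654 of 35116 RefSeq promoters were placed. Unplaced starts can lie closer, here and for the single bins below, so these counts do not show that called bins lay far from promoters. In 49 all CpGs moved the same way. Averaged over CpGs in place of reads, 50 kept a difference of 25 points and 65 one of 15. The other 7 were short of 15 points. In the bin at chr17:4699001-4700000 no CpG was lower in TKO CME, although the level from its summed reads was 25.9 points lower.

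Few called bins had a neighbour to compare. Of the 25 with a measured neighbouring bin, 2 had a neighbour that moved 10 points or more in the same direction, and 0 had a called neighbour. On 49 the forward and reverse strand could be read apart: 45 moved the same way on both and 36 by 15 points or more on both. Over all 27698 bins read on both strands, the forward and reverse differences had a Pearson correlation of 0.230, a description across bins that share libraries. The SD of the stage difference was 4.09 points on the forward and 4.05 points on the reverse strand. The 2 strands of a bin differed within a library by an SD of 4.27 points in TKO CME and 5.05 points in TKO SC. The spread between stages was thus no wider than that between the strands of a bin within a library. In the 631 bins that were 10 points or more higher on the forward strand, the reverse strand was higher in 67.5%, against 52.3% of all bins, and the median reverse difference over the 631 was 3.17 points. In the 437 bins 10 points or more lower on the forward strand, the reverse strand was lower in 65.0%, against 44.2% of all bins, with a median of -2.49 points.

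The largest rise was at chr1:184814001-184815000, where 5 CpGs stood at 92.9% in TKO CME (85.3 to 96.7, 84 reads) and 48.1% in TKO SC (38.7 to 57.6, 104 reads; adjusted p = 5.83e-10, Fisher's exact test). TKO CP stood at 91.7%. The WT bin went the other way, at 74.7% in WT CME and 92.8% in WT SC, with 92.4% in WT CP and 87.5% in WT CM. At chr11:73357001-73358000, 5 CpGs stood at 85.1% in TKO CME and 47.6% in TKO SC, against 3.95% in WT CME and 2.27% in WT SC. TKO CP stood at 92.9% there, WT CP at 2.93% and WT CM at 16.9%. The nearest placed start, that of FAM168A, was 48.3 kb away. RefSeq lists PLEKHB1 between the placed starts of FAM168A and RAB6A, and its start may lie closer.

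Another large rise lay in the interval of a cardiac gene. At chr5:172662001-172663000, 9 CpGs stood at 78.3% in TKO CME (70.1 to 84.8, 120 reads) and 41.7% in TKO SC (35.6 to 48.2, 230 reads; adjusted p = 2.00e-09, Fisher's exact test). All 9 were higher, by 15.4 to 56.8 points. The bin lies between the placed starts of BNIP1 and STC2, an interval in which RefSeq lists NKX2-5, the homeobox factor of early heart formation. NKX2-5 itself was not placed, so the distance of the bin from its start is not known. Its promoter was not among those tested, and the bin may lie at or near it. Both WT libraries were near 0, at 0.690% in WT CME and 0.806% in WT SC. The neighbouring bins differed by -1.44 and 7.88 points, far less than the bin itself.

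At chr11:32008001-32009000, between the placed starts of PAUPAR and RCN1, 7 CpGs stood at 84.6% in TKO CME and 48.1% in TKO SC. Levels were 13.02% in WT CME and 3.61% in WT SC, and TKO CP stood at 55.2%. At chr13:100628001-100629000, 4.34 kb from the start of ZIC5 and between ZIC5 and ZIC2, a pair of zinc finger factors of neural development, 5 CpGs stood at 67.7% in TKO CME and 31.5% in TKO SC. TKO CP stood at 65.7%, close to TKO CME, and WT CME at 45.5%. The remaining 3 of the 8 largest rises were chr3:27578001-27579000 (100% in TKO CME and 67.2% in TKO SC), chr3:47185001-47186000 (80.5% in TKO CME and 48.5% in TKO SC) and chr20:49836001-49837000 (41.1% in TKO CME and 9.52% in TKO SC). The last of these is 31.6 points by reads and 21.02 points as a mean over its CpGs.

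A smaller rise, picked after its values were seen, had the most CpGs of the bins higher in TKO CME. At chr7:27286001-27287000, between the placed starts of HOTTIP and TAX1BP1-AS1 at the end of the HOXA cluster, 24 CpGs stood at 48.2% in TKO CME and 22.7% in TKO SC, and 21 of them were higher. Fisher's exact test gave an adjusted p of 1.62e-84, and TKO CP stood at 59.6%. The WT bin was also higher at the mesoderm stage, at 25.8% in WT CME and 7.86% in WT SC. The steps differed by 7.23 points between the genotypes, which did not pass the z test.

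The largest fall was at chr14:69229001-69230000, 30.6 kb from the start of ZFP36L1, which encodes an RNA-binding protein that speeds mRNA decay. Its 5 CpGs stood at 38.9% in TKO CME (35.03 to 42.9, 589 reads) and 79.6% in TKO SC (75.9 to 82.9, 520 reads; adjusted p = 3.65e-41, Fisher's exact test). All 5 were lower, with differences from -42.5 to -35.3 points, and with -45.02 points on the forward and -35.8 on the reverse strand. The WT bin was lower at the same step, at 14.9% in WT CME and 34.6% in WT SC, and stood at 0.746% in WT CP and 0% in WT CM. TKO CP stood at 63.2%, between the earlier TKO stages. It was 1 of the 2 bins still called with reads divided by CpGs (adjusted p = 1.46e-05, Fisher's exact test).

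At chr12:6449001-6450000, 5 CpGs stood at 38.7% in TKO CME and 75.1% in TKO SC, and TKO CP stood at 38.1%. The WT levels were 23.9% in WT CME and 29.1% in WT SC. The nearest placed start, 43.8 kb away, was that of LTBR, a member of the tumour necrosis factor receptor family. RefSeq lists PLEKHG6, TNFRSF1A and SCNN1A between the placed starts of CD9 and LTBR, and these genes may lie closer. At chr22:26585001-26586000, 5 CpGs stood at 54.4% in TKO CME and 90.5% in TKO SC, against 91.5% in WT CME and 79.1% in WT SC. The bin with the most CpGs among the 8 largest falls, chr12:20704001-20705000, stood at 35.2% in TKO CME and 70.5% in TKO SC over 23 CpGs. It was the second bin called with reads divided by CpGs, but 12 of its 23 CpGs were lower and their mean difference was -8.47 points, far smaller than that of the summed reads.

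In the other 4 of the 8 largest falls the WT level was also lower at the mesoderm stage. At chr5:141675001-141676000, 7 CpGs stood at 49.4% in TKO CME and 82.01% in TKO SC, and at 13.04% in WT CME and 26.2% in WT SC. At chr3:184514001-184515000, 15.8 kb from the start of VPS8, 6 CpGs stood at 53.6% in TKO CME and 87.1% in TKO SC, and at 56.0% in WT CME and 71.97% in WT SC. At chr1:18384001-18385000, 49.8 kb from the start of IGSF21, 5 CpGs stood at 55.5% in TKO CME and 89.4% in TKO SC, and at 86.05% in WT CME and 98.8% in WT SC. At chr8:123928001-123929000, 7 CpGs stood at 47.2% in TKO CME and 81.8% in TKO SC, and at 25.4% in WT CME and 47.8% in WT SC. In these 4 the TKO step was below the WT step by -21.2 to -12.1 points, and 1 of the 4 differences passed an adjusted p of 0.01 (z test).

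The later TKO CP library, which was not part of the choice, gave a further stage. It was measured at 19 of the higher bins, with a median of 72.1%, and lay nearer to TKO CME than to TKO SC in 16. It was measured at 19 of the lower bins, with a median of 75.7%, and lay nearer to TKO SC in 12 and nearer to TKO CME in 7. TKO CP also stood above both earlier stages over all bins with WT values, with a median of 87.3%, against 84.1% in TKO CME and 84.2% in TKO SC. Of the 2393 single CpGs higher in TKO CME by the same rule (0.112% of all) 40 lay in bins called higher, and of the 1665 lower ones (0.0777%) 49 lay in bins called lower.

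The WT pair shares no library with the TKO pair, so it gives a second look at bins chosen by their TKO difference. Of the bins called at 15 points or more, 363 higher and 302 lower ones were measured in both WT libraries. Each WT level was taken over the CpGs of the bin with 10 or more reads in that library. The WT CME and WT SC levels of a bin can therefore rest on different CpGs, and part of a WT difference can come from that. The 363 had a median WT difference (CME minus SC) of 3.61 points, and 281 of them, or 77.4%, were above 0, against 59% of all bins. A WT rise of 10 points or more occurred in 21.2%, against 1.78% of all bins. A WT fall of that size occurred in 2.20%, against 0.58% of all bins. The 363 had a median of 38.6% in WT SC, against 85.0% over all bins. In bins at 20 to 80% in WT SC alone, the rise occurred in 28.8% of 118 higher bins, against 8.93% of all in that class. The 302 had a median WT difference of -1.09 points, and 182, or 60.3%, were below 0, against 40.9% of all bins. A WT fall of 10 points or more occurred in 11.9%, against 0.58% of all bins. A WT rise of that size occurred in 2.32%, against 1.78% of all bins. In bins at 20 to 80% in WT SC alone, the fall occurred in 23.4% of 124 lower bins, against 2.20% of all in that class. In both sets the WT step thus went the way of the TKO step more often than over all bins; the sets were not tested against each other.

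By WT level, the shares stood farthest above those of all bins for falls at 20 to 80% and rises under 20%, and nearest to them for rises at 80% or more and falls under 20%. For bins at 20 to 80% in WT SC, the share with a WT rise was 78.0% of 118 higher bins, against 64.5% of all bins in that class, and the share with a WT fall was 65.3% of 124 lower bins, against 35.4%. For bins under 20%, it was 87.1% of 132 higher bins, against 58.1%, and 50.8% of 61 lower bins, against 41.8%. For bins at 80% or more, it was 65.5% of 113 higher bins, against 58.3%, and 59.8% of 117 lower bins, against 41.6%. All bins share the same pair of WT libraries and are not replicates, so these shares were not tested and no lean is concluded for any class. The classes were cut on WT SC, which is also part of the WT difference.

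**Figure D3:**
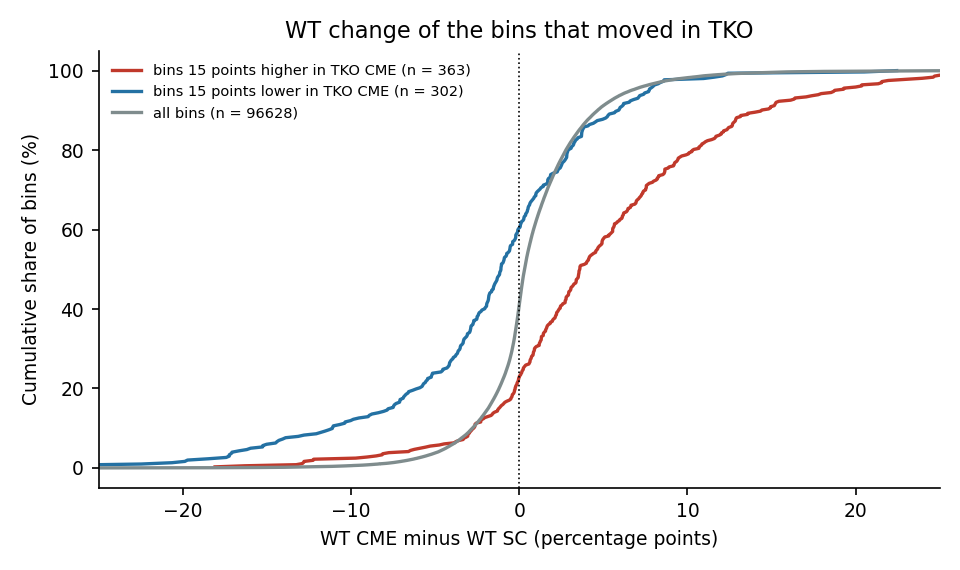
Cumulative share of bins (%) by the WT difference, CME minus SC, in percentage points, for bins 15 points higher in TKO CME (red, 363), bins 15 points lower (blue, 302) and all bins (grey, 96628). From about 0 upwards the red curve lies to the right of the grey one, with 77.4% of its bins above 0, and the blue curve lies to the left over the negative range, with 60.3% below 0.

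Tested directly, the step differed between the TKO and WT libraries in few bins. By a z test of the difference of differences, at an adjusted p under 0.01 and 25 points, the TKO step exceeded the WT step in 40 of 96462 bins (0.0415%) and was below it in 60 (0.0622%). Of the 19 called rises with WT values, all 19 had a larger step in TKO and 8 were called for that difference. Of the 26 called falls, all 26 had a lower step in TKO and 9 were called. The direction of these follows from how they were chosen. The fall by ZFP36L1 differed from WT by -21.02 points and that by LTBR by -31.3 points. A bin could also be called because the WT step was large: at chr7:5428001-5429000, 105 CpGs stood at 91.7% in TKO CME and 88.5% in TKO SC, against 59.97% in WT CME and 24.9% in WT SC. With reads divided by CpGs, 0 bins were called in either direction by the z test.

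Few promoters moved by a large amount. CpGs within 500 bp of a placed start gave 12702 distinct promoters, with a median of 0.560% in TKO CME and 0.525% in TKO SC. At 25 points 0 were higher and 1 (0.00787%) was lower, that of the uncharacterised LOC124900637 (58.3% in TKO CME and 86.6% in TKO SC over 5 CpGs). Genes with no placed start, such as NKX2-5, are not among the promoters tested. Fisher's exact test alone, at an adjusted p under 0.01 and any size, passed 1455 (11.5%) higher and 838 (6.6%) lower. At 10 points, 48 (0.378%) were higher and 14 (0.11%) lower. The 48 had a median of 40.9% in TKO CME and 28.3% in TKO SC, and of 9.10% in WT SC. Of these 48, 43 also had a WT step above 0 (89.6%), against 54.4% of all promoters. Some of the 48 windows overlap and are counted apart, such as IL13 with TH2LCRR and ADIRF-AS1 with LOC124902474. All promoters had a median of 1.48% in WT SC, close to the 1.46% of unconverted cytosine at the mitochondrial CpGs of that library. The shares thus compare promoters of unlike level and were not tested. Of the 12 lower ones with WT values, 5 had a WT step below 0 or at 0. With reads divided by CpGs, 0 promoters passed in either direction by Fisher's exact test.

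VAMP5, a membrane protein of the SNARE family found in muscle, stood at 52.7% in TKO CME (50.8 to 54.7) and 30.4% in TKO SC (28.6 to 32.2) over 31 CpGs. It stood at 25.6% in WT CME and 13.6% in WT SC, and at 89.5% in TKO CP. In TKO the level was higher at each later stage. TTLL8, of the tubulin tyrosine ligase-like family, stood at 40.9% in TKO CME and 18.2% in TKO SC over 74 CpGs, and at 19.3% in WT CME and 9.93% in WT SC. OXT, the oxytocin gene, stood at 42.8% in TKO CME and 26.5% in TKO SC, and at 32.5% in WT CME and 22.999% in WT SC. LOC101929098 overlaps it and shares these CpGs. IL13, a cytokine gene, stood at 81.9% in TKO CME and 70.5% in TKO SC, but at 6.69% in WT CME and 4.003% in WT SC. TBX1, a T-box factor of pharyngeal and heart development, stood at 32.7% in TKO CME and 22.6% in TKO SC, and at 4.54% in WT CME and 4.04% in WT SC. All 5 were already partly methylated in TKO stem cells.

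Among the lower promoters, KHDC1, which encodes a KH-domain protein, stood at 18.7% in TKO CME (16.5 to 21.2) and 36.7% in TKO SC (34.3 to 39.2), and TKO CP at 65.2%. Its WT levels were 4.41% in WT CME and 1.402% in WT SC, and LOC122539213 shares its CpGs. MEIS3, a homeobox factor that works with HOX proteins, stood at 24.4% in TKO CME and 43.6% in TKO SC, and at 15.3% in WT CME and 3.68% in WT SC. KCNA4, a potassium channel, stood at 12.6% in TKO CME and 29.3% in TKO SC. CYP2R1, a vitamin D 25-hydroxylase, stood at 16.6% in TKO CME and 30.3% in TKO SC. TWIST2, a basic helix-loop-helix factor, stood at 50.5% in TKO CME and 61.1% in TKO SC, below 86.9% in WT CME and 83.6% in WT SC. KHDC1 and MEIS3 thus fell in TKO, while their WT levels stood higher at CME than at SC. At KHDC1 the WT levels rest on unlike CpGs. From -303 to -266 bp from the start WT SC had no value, while WT CME stood at 0 to 30%.

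Genes of the mesoderm step were looked up by list, taking the start with the most matched CpGs for each gene. Of 19 primitive streak and early mesoderm genes 5 could be measured, and 3 of them were lower and 0 higher by Fisher's exact test (adjusted p under 0.01, any size), against 6.6% lower and 11.5% higher over all promoters. MIXL1, a homeobox factor of the primitive streak, stood at 1.47% in TKO CME (1.27 to 1.69) and 3.37% in TKO SC (3.01 to 3.76). Over the 300 bases at its start alone, 25 CpGs stood at 0.692% in TKO CME and 0.636% in TKO SC, with 11 higher and 6 lower, so the difference lay outside them. HAND1 stood at 0.927% in TKO CME and 1.94% in TKO SC, and EOMES at 0.273% in TKO CME and 1.003% in TKO SC. TBXT did not pass, at 0.305% in TKO CME and 0.350% in TKO SC, nor did TBX6, at 5.81% in TKO CME and 6.79% in TKO SC. The list's median difference was -0.983 points, against 0.0493 points over all promoters. Over all promoters the median in TKO SC was 0.525%, against 1.94% in the list. These promoters were nearly unmethylated at both stages, and the changes were of 2 points or less.

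In the other lists few promoters passed, none at 25 points. Of 17 pluripotency genes 6 were measured: UTF1 was higher, at 3.96% in TKO CME and 1.81% in TKO SC, and 5 did not pass, among them ZFP42 at 17.8% in TKO CME and 15.04% in TKO SC. Of 17 cardiac progenitor factors 7 were measured: TBX1 and IRX4 were higher (IRX4 at 2.22% in TKO CME and 1.39% in TKO SC), GATA6 was lower (0.169% in TKO CME and 0.614% in TKO SC) and 4 did not pass. Of 12 genes of the methylation machinery 7 were measured, with DNMT3A higher by 0.209 points, less than the gap in unconverted cytosine, and 6 not passing. Of 15 neuroectoderm genes 8 were measured, with PAX6 higher, NEUROG1 and PAX7 lower and 5 not passing. Of 10 endoderm genes 5 were measured, with HHEX lower and 4 not passing.

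Most germline promoters were methylated at both stages. Of 13 germline genes 8 were measured, with medians of 90.6% in TKO CME and 89.7% in TKO SC. MAEL alone was near 0, at 0.356% in TKO CME and 0.0852% in TKO SC. MOV10L1 was higher, at 93.5% in TKO CME and 91.3% in TKO SC, and 7 did not pass. Of 18 imprinted genes 11 were measured: ZNF597 was higher, at 36.03% in TKO CME and 26.7% in TKO SC, L3MBTL1 was higher by 1.55 points, BLCAP was lower by 0.448 points, and 8 did not pass. ZNF597 stood at 1.16% in TKO CP, below both earlier TKO stages. A start of GNAS other than the listed one was among the 48, at 37.01% in TKO CME and 24.7% in TKO SC.

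Several Wnt pathway genes fell within 500 bp of their starts. Of 23 genes 7 were measured, and 4 were lower and 1 higher within 500 bp of the start (Fisher's exact test, adjusted p under 0.01, any size), against 6.6% lower and 11.5% higher over all promoters. SP5, a zinc finger factor that is a direct Wnt target, stood at 0.773% in TKO CME (0.571 to 1.05) and 5.15% in TKO SC (4.55 to 5.82). WNT3A, a ligand, stood at 2.23% in TKO CME and 4.75% in TKO SC. Over the 300 bases at its start alone, 36 CpGs stood at 0.690% in TKO CME and 0.824% in TKO SC. DKK1, a secreted antagonist, stood at 3.74% in TKO CME and 5.84% in TKO SC, and TCF7, a nuclear partner of beta-catenin, at 2.47% in TKO CME and 3.94% in TKO SC. SFRP5, another antagonist, was higher, at 3.33% in TKO CME and 2.13% in TKO SC. The list's median difference was -1.47 points. Its median in TKO SC was 3.94%, against 0.525% over all promoters, so the shares that passed compare promoters of unlike level. The 4 lower genes were also lower in WT CME than in WT SC, with SP5 at 3.05% in WT CME and 3.99% in WT SC. Their WT differences ran from -0.941 points (SP5) to -0.380 points (DKK1) and were not tested. Unconverted cytosine at mitochondrial CpGs was 0.387% in TKO CME and 0.140% in TKO SC, but 1.44% in WT CME and 1.46% in WT SC. WNT3A (1.36% in WT CME and 1.85% in WT SC) and DKK1 (1.46% in WT CME and 1.84% in WT SC) stood close to the WT shares. SP5 and TCF7 (4.49% in WT CME and 4.91% in WT SC) stood above them. The share of unconverted cytosine at these promoters was not measured, and the cause of the falls was not tested.

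The flanks of the same starts were then measured, a window chosen after the falls at WNT3 and SP5 had been seen. From 0.5 to 4 kb before the start, 6 Wnt genes could be measured and all 6 were lower, against 14.6% of 6678 such windows over all placed starts lower and 11.4% higher. DKK1 stood at 25.4% in TKO CME and 42.5% in TKO SC over 7 CpGs, and at 3.02% in WT CME and 4.41% in WT SC. WNT3A stood at 50.3% in TKO CME and 60.1% in TKO SC. WNT5A, TCF7, WNT3 and SP5 differed by -2.71 to -2.31 points. From 0.5 to 4 kb into the gene, 2 of 7 were lower, WNT3 and SP5, and 5 did not pass, against 16.3% lower and 10.9% higher of 7201 windows. At 10 points or more, DKK1 was the 1 Wnt gene lower before the start and WNT3 the 1 lower into the gene. Over all placed starts, 2.22% were lower and 1.83% higher by that size before the start, and 2.65% lower and 1.31% higher into the gene. Of the 5 mesoderm genes measured into the gene, 2 were lower, 1 was higher and 2 did not pass. TBX6 was the higher one, at 81.2% in TKO CME and 75.4% in TKO SC. EOMES was lower, at 0.867% in TKO CME and 2.45% in TKO SC. MIXL1, also lower, stood at 14.1% in TKO CME and 35.1% in TKO SC over 5 CpGs of that stretch, and at 21.6% in WT CME and 27.4% in WT SC. With reads divided by CpGs, 0 Wnt genes passed in any of the 3 windows by Fisher's exact test. Before the start, 4 mesoderm genes were measured: 1 was lower, 0 were higher and 3 did not pass. Among cardiac factors, 4 of 6 were higher before the start and 2 lower: IRX4 stood at 52.2% in TKO CME and 38.1% in TKO SC, and GATA6 at 4.92% in TKO CME and 8.49% in TKO SC. Into the gene, 0 of 7 cardiac factors were higher, 2 were lower and 5 did not pass. The lower ones were FOXC1, by -2.46 points, and GATA6, by -0.971 points.

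**Figure D4:**
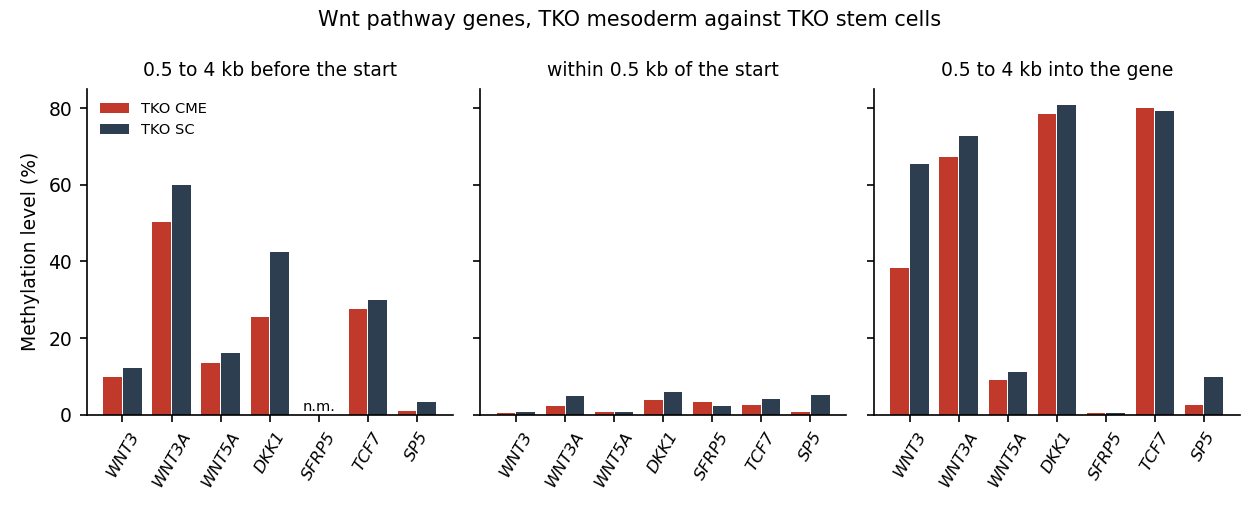
Methylation level (%) of 7 Wnt pathway genes in 3 windows around the start, TKO CME (red) beside TKO SC (dark blue), as bars of summed reads from 1 library each; n.m. marks a window with fewer than 5 CpGs measured. Before the start all 6 measured genes were lower in TKO CME, at the start levels were under 6%, and into the gene WNT3 and SP5 differed most in proportion.

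WNT3, the ligand needed to form the primitive streak in the mouse, was the nearest placed start of 2 of the 37 bins called lower. At chr17:44894001-44895000, 1.56 kb from its start, 13 CpGs stood at 50.8% in TKO CME (47.4 to 54.2, 817 reads) and 77.02% in TKO SC (74.5 to 79.3, 1153 reads; adjusted p = 1.08e-30, Fisher's exact test). The WT bin stood at 28.4% in WT CME and 39.7% in WT SC, and the genotypes' steps differed by -15.8 points, which passed the z test but was short of 25 points. TKO CP stood at 85.01%. A neighbouring bin was 22.1 points lower. The other, chr17:44850001-44851000, 45.6 kb from the start, stood at 17.9% in TKO CME and 44.3% in TKO SC over 5 CpGs. Over the 19 CpGs from 0.5 to 4 kb into the gene the mean was 35.1% in TKO CME and 57.6% in TKO SC, with 18 CpGs lower and 0 higher. Within 500 bp of the start 28 CpGs averaged 0.280% in TKO CME and 0.647% in TKO SC, so the difference lay past the unmethylated start.

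SP5 was lower on both sides of its start and at the start itself. From 0.5 to 4 kb into the gene 111 CpGs averaged 3.39% in TKO CME and 9.79% in TKO SC, with 73 lower and 6 higher, and the largest single difference was -51.6 points. In WT the mean there was 1.73% in WT CME and 3.33% in WT SC. Within 500 bp, 17 of 25 CpGs were lower and 4 higher. VAMP5 was the reverse, with all 31 CpGs within 500 bp higher in TKO CME, by 3.93 to 32.4 points. At KHDC1, 12 of 16 CpGs were lower, all nearest the start, and the 4 farthest upstream were higher.

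**Figure D5:**
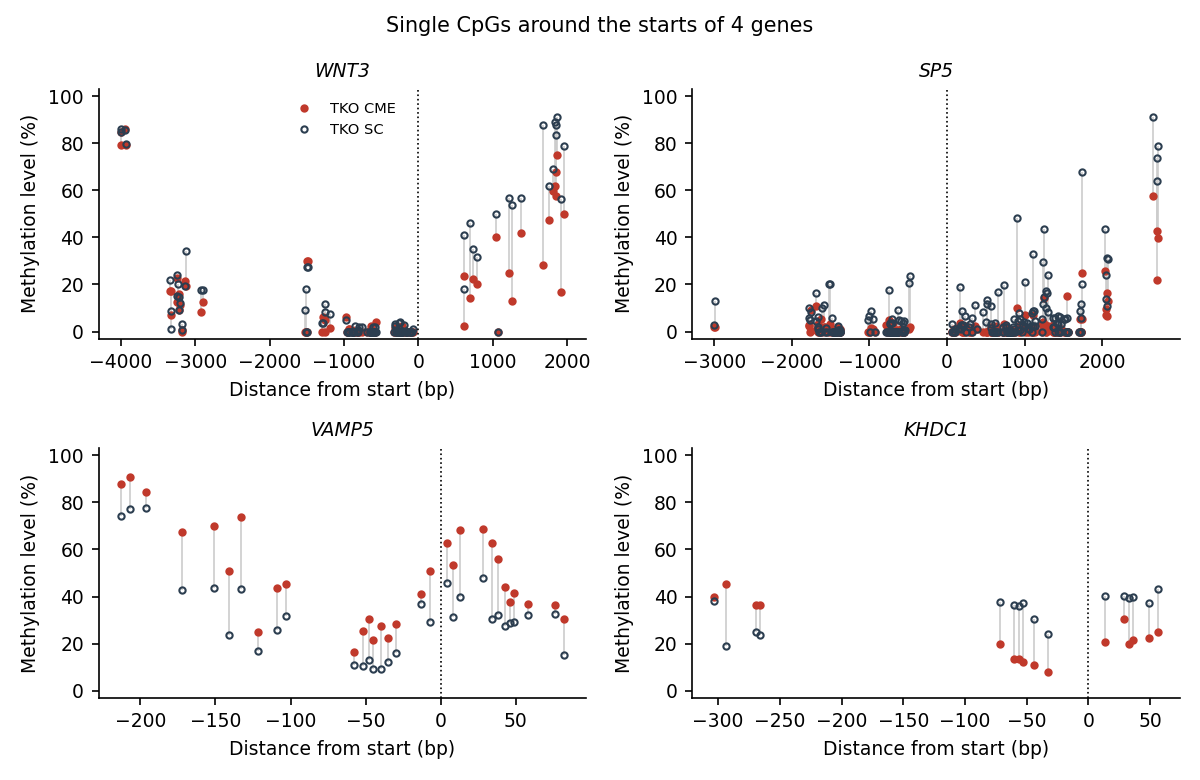
Methylation level (%) of single CpGs against the distance from the start in bp, with positive values into the gene, for WNT3, SP5, VAMP5 and KHDC1; filled red circles are TKO CME, open circles TKO SC, joined by a grey line. At WNT3 and SP5 most open circles lie above the red ones past the start, at VAMP5 every red circle lies above, and at KHDC1 the red circles lie below except for the 4 farthest upstream.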

How the data were processed

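Enhanced reduced representation bisulfite sequencing reads only C or T at a CpG, so oxidised forms read as C are counted as methylated. Sequencing, alignment and methylation calling were done at a core facility, per the labels' protocols. The build was hg19, per the submitters' processing notes; aligner and caller were not given in the sources used here. Each deposited file lists single cytosines with their coverage, a raw read count of at least 10, and, per the file headers, the percent of C and T. Coverage times percent gave whole reads, within the rounding of the percentages, in 100% of lines.

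Forward and reverse strand reads were added per CpG. Groups came from sample titles. Bins of 1 kb with 5 or more CpGs at 10 or more reads in both TKO libraries were compared by Fisher's exact test (two-sided), called at an adjusted p (Benjamini-Hochberg) under 0.01 and 25 points; steps were compared between genotypes by a z test. Both were tested on simulated data. Bins are named as the 8 largest rises and 8 largest falls, promoters as the largest differences within a list. The members and lists were chosen with earlier results of these data known. Of 35116 RefSeq promoter sequences, 21319 with 8 or more CpGs were searched for by the spacing of CpGs on the files' positions. Of these, 13654 were used, 26 placed on another chromosome than RefSeq gives were left out, and 0.0587% of neighbouring pairs were out of RefSeq order. RefSeq's own coordinates played no part in the match itself. They were given for the 4 printed sequences and used for the check of order. They also served to list the genes between placed starts, such as NKX2-5. Promoters within 500 bp of a placed start were tested like bins, in place of the planned test on an hg19 annotation, and those named outside a list were picked after their values were seen. Alternatives covered the read minimum, the CpG set, strands, size thresholds and read counting. Tools were scipy 1.17.1, numpy 2.4.6, numba 0.67.0, pandas 2.3.3 and matplotlib 3.10.9 under Python 3.11.15.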

Additional observations from a re-analysis of the deposited data

Results flagged for a closer look

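The step from stem cell to mesoderm was compared between the TKO and the WT libraries by a z test of the difference itself. At an adjusted p under 0.01 and 25 points or more, the TKO step was above the WT step in 40 of 96462 bins and below it in 60. With reads divided by CpGs these counts were 0 and 0. At chr1:184814001-184815000 the TKO step was 44.8 points and the WT step -18.1 points. At chr22:26585001-26586000 the TKO step was -36.1 points and the WT step 12.4 points. That bin had 57 reads in TKO CME, 116 in TKO SC, 106 in WT CME and 67 in WT SC. In both bins the TKO step rests on the forward strand alone. Each bin rests on 1 library per group, so the test compares libraries and cannot show that the genotypes differ, and both of these bins hold 5 CpGs.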

How the results depend on the processing

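The median bin difference changed sign under 1 alternative, at -0.0161 points after correction for unconverted cytosine. The alternatives for placed promoters, WT shares and Wnt windows were chosen after seeing the data. Bins higher and lower in TKO CME numbered 18 and 19 at a minimum of 20 reads, 15 and 15 at 30 reads, 19 and 16 over CpGs with 10 reads in all 7 libraries, 5 and 5 with 10 or more CpGs, 473 and 400 at 15 points, 1 and 1 at 40 points, and 0 and 2 with reads divided by CpGs. The mean level difference was 0.391 points at 30 reads, 0.404 over all 7 libraries, 0.357 on the forward strand and 0.313 after correction for unconverted cytosine. The median bin difference was 0.158 points as a mean over CpGs. Steps above and below WT numbered 13 and 27 at 20 reads, 356 and 641 at 15 points, 1 and 2 at 40 points, and 0 and 0 with reads divided. Promoters higher and lower by 10 points numbered 11 and 8 at 15 points and 0 and 0 with reads divided; 82 were higher over the 300 bases alone, and 28 lower within 1000 bp. The share of higher bins with a WT rise was 88.6% with 10 or more CpGs and 82.9% at 20 reads, and that of lower bins with a WT fall was 80.8% at 25 points. The Wnt genes lower numbered 0 in each window with reads divided. Fewer reads per test follow from that division by its construction; the cause of the other changes was not tested. No paired analysis was possible because each group has 1 library, so no replicate could be left out either. The promoter test planned on an hg19 annotation was not run. Depth limits bins of few CpGs: the fewest reads in a called bin were 51.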
